A study of Mus musculus with 6 samples.

Results

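The genes described here are 10 genes listed as shared by blood vessel endothelium and hematopoietic stem cells (HSCs): Egfl7, Emcn, Cldn5, Pecam1, Esam, Robo4, Cdh5, Tie1, Eng and Cd34. They were taken by name, as a list of shared genes, by a rule that uses no measured value, although earlier results of these data were known when the list was drawn up. All 10 stood among the 21851 genes of the tables, and 9 of them passed the filter on low values that 10281 genes passed. RNA was read from HSCs sorted out of the bone marrow of wild-type mice, in 3 libraries from control mice (Ctrl) and 3 from mice exposed to ionizing radiation (IR). The sort took lineage-negative cells that carried Sca-1, c-Kit and CD150 and lacked Flt3 and CD48; none of the 10 gene products was part of the gate. In all 6 libraries the RNA of Flt3 and Cd48 was abundant and that of Slamf1, which encodes CD150, was low, with values given beside the other markers. The sources used here do not give the dose, the interval after exposure, the age and sex of the mice, or whether a library held 1 mouse or a pool. Since no label ties the libraries to separate mice, the p-values speak for the spread among these 6 libraries, which may be technical.

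Blood stem cells arise in the embryo from a specialised endothelium, and the 2 lineages keep part of a common surface programme in the adult. Endothelial cells use these proteins to build junctions (claudin-5, VE-cadherin, PECAM-1, ESAM), to read guidance and growth signals (ROBO4, TIE1, endoglin) and to coat their lumen with sialomucins (CD34, endomucin). In the marrow several of the same proteins mark or anchor HSCs, and ROBO4, ESAM and endoglin are known as HSC surface markers.

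Levels are given in FPKM, that is, fragments scaled by transcript length in kilobases and by the number of mapped fragments in the library. Differences are IR minus Ctrl on log2(FPKM + 1), tested with limma across all 10281 genes, and a gene is said to rise or fall where the Benjamini-Hochberg adjusted p was under 0.05. Of the 9 members tested, 6 fell (Egfl7, Robo4, Emcn, Cldn5, Pecam1 and Cd34), none rose, and 3 were not called (Esam, Tie1 and Eng). Over all tested genes 54.7% were called, 28.9% as lower and 25.8% as higher. The 3 IR libraries lay below the 3 Ctrl libraries in 6 members and above them in none, against 32.5% and 29.1% of all tested genes and 61.7% in either direction. The median difference of the tested members was -0.29, against -0.0072 over all tested genes. Cldn5 passed the filter only through its Ctrl libraries, so its place among these counts was tied to its being lower in IR. The libraries rested on an estimated 14360000 to 16270000 fragments each, worked back from the spacing of low values.

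**Figure D1:**
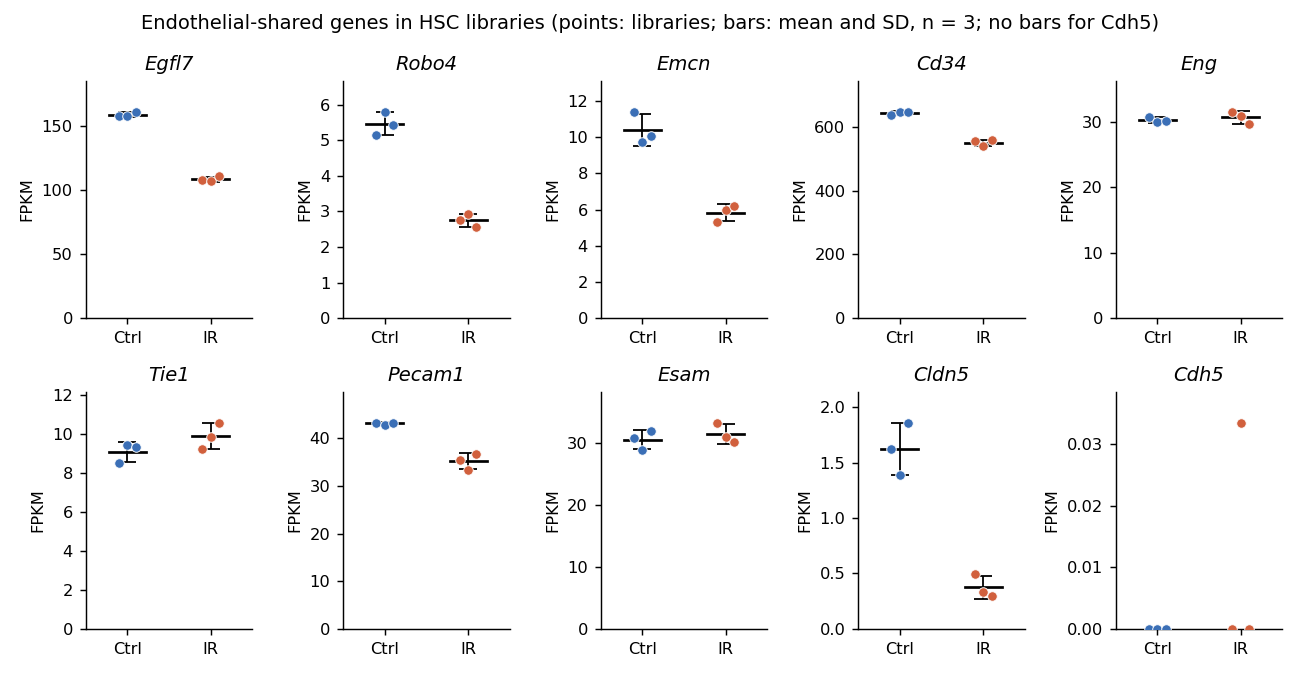
FPKM of each of the 10 genes in the 3 Ctrl (blue) and 3 IR (orange) libraries, each panel with its own linear axis from 0; points are libraries, black bars the mean and SD, left out for Cdh5. The groups are apart for Egfl7, Robo4, Emcn, Cd34, Pecam1 and Cldn5 and overlap for Eng, Tie1 and Esam.

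Egfl7 encodes a secreted factor that endothelial cells and HSCs release and that binds matrix, integrins and Notch receptors. Its level was 158, 158 and 161 FPKM in the Ctrl libraries and 108, 107 and 111 FPKM in the IR libraries. The groups lay far apart relative to their spread, with a coefficient of variation of 1.08% in Ctrl and 1.81% in IR. The log2 difference was -0.55 (95% interval -0.60 to -0.50), with an adjusted p of 8.92e-08 by limma, and only 3.1% of tested genes had a more negative difference. The gene spans chromosome 2 from 26580014 to 26593120 (GRCm38, GENCODE M21, plus strand) with 19 annotated transcripts, which the tables join in 1 value. It overlaps Agpat2 on the minus strand, which was not called at a log2 difference of 0.09. The strand setting of the quantification is not given, so reads of the overlapping stretch cannot be told apart.

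Egfl7 is also the host gene of miR-126, a microRNA of endothelium and HSCs known for holding stem cells in quiescence. A mature strand of this locus is shown from RefSeq (GRCm38.p6, chr2:26591402-26591423, plus strand) with its seed, bases 2 to 8, in capitals.
mmu-miR-126a-3p: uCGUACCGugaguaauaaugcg
It lies inside the Egfl7 gene body. The libraries selected polyadenylated RNA, the tables hold no row for this microRNA, and its level was not analysed here; the fall above is that of the host messenger.

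Robo4 encodes an endothelial roundabout receptor that on HSCs takes part in anchorage to the marrow niche. It stood at 5.15, 5.79 and 5.43 FPKM in Ctrl and at 2.76, 2.91 and 2.57 FPKM in IR. Every IR library lay under every Ctrl library, and the mean in Ctrl was 1.99 times that in IR. The log2 difference was -0.78 (95% interval -0.92 to -0.65, limma adjusted p = 4.31e-06), which 1.2% of tested genes exceeded in the same direction. Robo4 lies on chromosome 9 from 37401897 to 37415115.

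Emcn and Cd34 encode sialomucins, heavily glycosylated surface proteins that on endothelium modulate adhesion. Emcn (chromosome 3, 137341067 to 137432185) was at 11.4, 9.73 and 10.1 FPKM in Ctrl and at 5.32, 5.95 and 6.22 FPKM in IR. The highest IR library was well under the lowest Ctrl library, and the log2 difference was -0.74 (95% interval -0.89 to -0.59, limma adjusted p = 1.25e-05). Cd34 (chromosome 1, 194938819 to 194961279) is the classical progenitor antigen; in adult mice its protein is low on the most primitive HSCs and higher on progenitors. Cd34 RNA was at 635, 646 and 646 FPKM in Ctrl and at 554, 539.9 and 557 FPKM in IR. This was the smallest of the 6 falls on the log2 scale, at -0.22 (95% interval -0.26 to -0.18, limma adjusted p = 7.40e-06), yet the groups did not overlap. Cd34 was the most abundant member, above 99.1% of tested genes in the Ctrl mean and 98.9% in the IR mean.

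The junction and adhesion genes split. Cldn5, the claudin of endothelial tight junctions (chromosome 16, 18776847 to 18778262), had the lowest level of the tested members. It was at 1.62, 1.39 and 1.86 FPKM in Ctrl and 0.492, 0.335 and 0.295 FPKM in IR. It has 1 annotated transcript, and at the estimated depths these values came within 0.02 of whole fragments: 34, 32 and 38 in Ctrl against 11, 7 and 6 in IR. The ratio of mean FPKM was 4.34, the largest among the tested members, and the log2 difference was -0.93 (95% interval -1.13 to -0.74, limma adjusted p = 1.52e-05). The size depended on the pseudocount, with -1.88 at 0.1 FPKM and -0.30 at 5 FPKM.

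Pecam1 encodes CD31, an adhesion receptor of endothelium, platelets and leukocytes that signals through inhibitory phosphatases. It was at 43.3, 42.8 and 43.3 FPKM in Ctrl and at 35.5, 33.4 and 36.6 FPKM in IR. The IR libraries were all lower, by a log2 difference of -0.29 (95% interval -0.37 to -0.21, limma adjusted p = 0.000101). Pecam1 spans chromosome 11 from 106654217 to 106750628. Esam, an adhesion molecule of endothelial junctions and platelets (chromosome 9, 37528078 to 37538319), was at 30.8, 28.9 and 32.0 FPKM in Ctrl and at 33.3, 30.9 and 30.1 FPKM in IR. These groups overlapped, and the interval of the log2 difference ran from -0.065 to 0.14 around 0.04 (limma adjusted p = 0.501).

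Cdh5, which encodes VE-cadherin, the adhesion protein that defines endothelial adherens junctions, was listed at 0 in 5 of 6 libraries and at 0.0335 FPKM in IR replicate 2. At the estimated depths, that value is about 2 fragments on the longest transcript. A library with no fragment allows up to 0.0462 to 0.0523 FPKM (3 fragments over 3995 bases, counting error only). Cdh5 was under the filter. An exact two-sided permutation test of its 6 values gave p = 1.0. With only 1 value above 0 that outcome was fixed in advance, so the test cannot decide whether Cdh5 changed. The gene lies on chromosome 8 from 104101625 to 104144511.

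The growth factor receptors were not called. Tie1, an orphan receptor tyrosine kinase that modulates angiopoietin signalling through TEK (chromosome 4, 118471191 to 118490061), was at 8.51, 9.44 and 9.31 FPKM in Ctrl and at 9.21, 9.86 and 10.6 FPKM in IR. The values overlapped, and the log2 difference of 0.11 had an interval of -0.02 to 0.24 (limma adjusted p = 0.135). Eng, the co-receptor endoglin of the TGF-beta family (chromosome 2, 32646595 to 32682669), was at 30.7, 30.0 and 30.1 FPKM in Ctrl and at 31.5, 30.9 and 29.6 FPKM in IR. Its difference of 0.02 had an interval of -0.06 to 0.09 (limma adjusted p = 0.668). Its end overlaps Fpgs on the minus strand, also not called, at -0.0037.

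**Figure D2:**
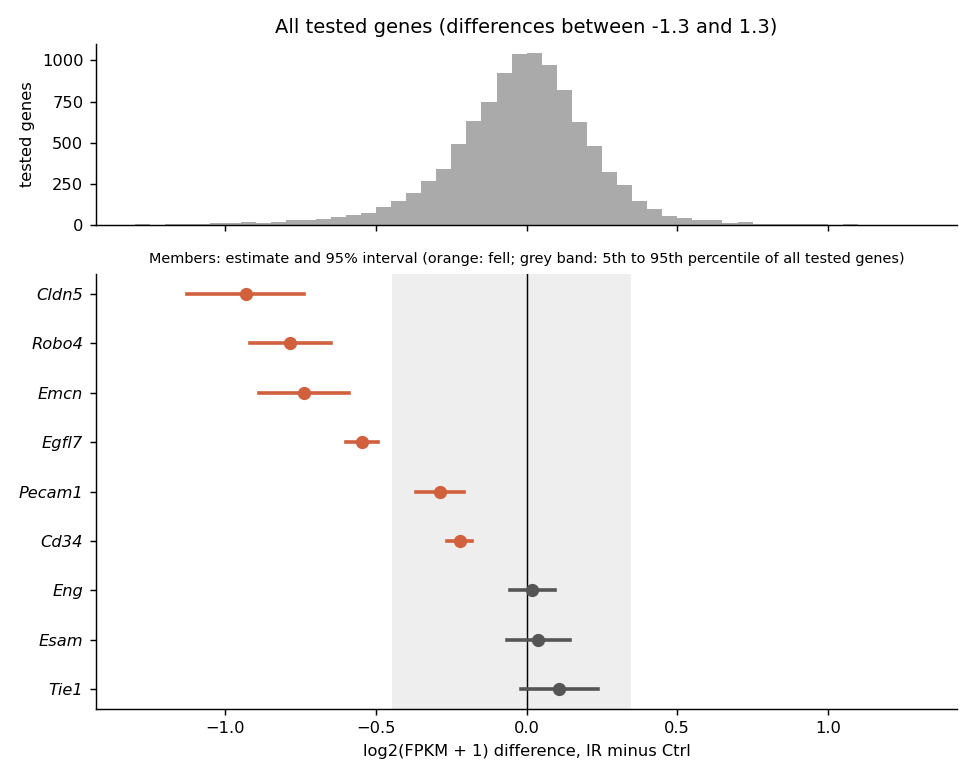
Upper panel: number of tested genes by log2(FPKM + 1) difference, IR minus Ctrl. Lower panel: the difference of each tested member with its 95% interval, orange for the 6 that fell and grey for the 3 not called, over a grey band from the 5th to the 95th percentile of all tested genes, -0.44 to 0.34. Cldn5, Robo4, Emcn and Egfl7 lie left of the band, Pecam1 and Cd34 inside it.

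By level, the members spanned from the top of the transcriptome to none. FPKM is per transcript length, so the order may be read across genes as a description. In Ctrl the mean FPKM ran from Cd34 (642) over Egfl7 (159), Pecam1 (43.1), Esam (30.6), Eng (30.3), Emcn (10.4), Tie1 (9.09), Robo4 (5.46) and Cldn5 (1.62) to Cdh5. Esam and Eng were the only neighbours in that order whose library values overlapped. In IR the order was the same except that Tie1 (9.88 FPKM) stood above Emcn (5.83 FPKM), and again only Esam and Eng overlapped. The ratio between members moved with it: Cd34 was 4.01 to 4.09 times Egfl7 in Ctrl libraries and 5.03 to 5.16 times in IR libraries. Esam was 4.99 to 5.97 times Robo4 in Ctrl and 10.6 to 12.1 times in IR.

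Other markers of endothelial cells were low, and most were under the filter on low values. Of 21 such genes, 16 were under 1 FPKM in every library and 3 were at 0 in all 6 (Sox17, Mmrn2 and Lyve1). Kdr, the main VEGF receptor, peaked at 0.253 FPKM, Flt1 at 0.274 FPKM and Stab2, a scavenger receptor of sinusoids, at 0.150 FPKM. Flt1 was at 0.0864 to 0.107 FPKM in Ctrl and at 0.143 to 0.274 FPKM in IR. The highest value of any of the 21 was 2.98 FPKM. Summed, the 21 markers came to 10.9 to 12.9 FPKM in Ctrl and 6.57 to 8.10 FPKM in IR, beside 925 to 939 and 762 to 784 FPKM for the 10 members. Of the 3 markers tested, Ecscr (log2 difference -0.46) and Ramp2 (-0.89), an adrenomedullin receptor subunit, fell. Plvap, a protein of endothelial diaphragms, was not called at -0.22. Ramp2 passed the filter through its Ctrl libraries, so its count as lower was tied to the filter. The IR libraries all lay under the Ctrl libraries in 8 of the 21 markers and above them in 3, among them Flt1 and Vwf. Over all tested genes these shares were 32.5% and 29.1%. The sets are unlike, since 18 of the 21 markers were under the filter and the 3 at 0 can only overlap. The summed level of the 21 markers was thus lower in IR as well, and its part in the members' differences was not tested. Vwf, which platelets share, was at 0.840 to 0.867 FPKM in Ctrl and 0.950 to 1.25 FPKM in IR. In bulk RNA, fewer cells of a type and less RNA per cell cannot be told apart.

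**Figure D3:**
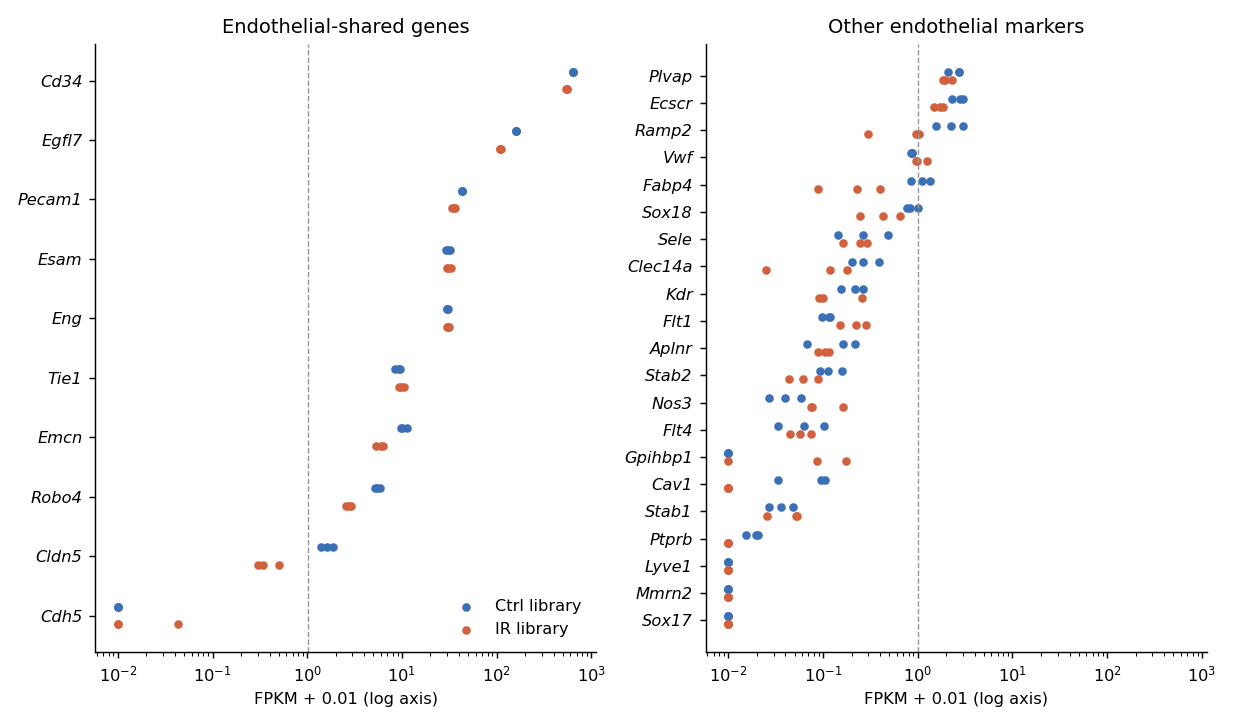
FPKM + 0.01 on a log axis for the 10 members (left) and 21 other endothelial markers (right), with 3 points per group, Ctrl blue and IR orange; the dashed line is 1 FPKM. The members reach 646 FPKM, while the markers stay under 3 FPKM and Cdh5 sits with the undetected ones.

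Markers of other cells also differed between the groups. Of 9 megakaryocyte and platelet markers tested, which belong to cells that share Pecam1 and Esam, 7 rose and 1 fell (median 0.63); Itga2b, the integrin CD41, had a log2 difference of 0.63. Their summed level was 189 to 194 FPKM in Ctrl and 249 to 261 FPKM in IR; of 11 in the tables, Gp6 was at 0 throughout. Of 12 stromal markers 3 were tested and all 3 fell (Vcam1 -0.43, Cxcl12 -0.24, Pdgfrb -0.15), with Pdgfra at 0 throughout and a sum of 23.5 to 24.0 FPKM in Ctrl and 19.2 to 19.8 FPKM in IR. Of 9 mature leukocyte markers 5 were tested, 2 of which rose and 3 fell (sum 1150 to 1175 FPKM in Ctrl, 1162 to 1176 FPKM in IR). That sum hides opposite changes of the mean from Ctrl to IR. Nkg7 rose from 535 to 648 FPKM, while Lyz2 fell from 510 to 437, S100a8 from 85.6 to 61.7 and Csf1r from 22.1 to 14.7 FPKM. Of 6 erythroid markers 5 were tested, 3 of which rose and 2 fell (sum 55.7 to 61.6 FPKM in Ctrl, 78.2 to 84.3 FPKM in IR). Car1 rose from a mean of 19.9 to 48.0 FPKM, and Epor and Klf1 also rose, while Hbb-bs fell from 13.3 to 5.94 FPKM. Of the 5 sorted markers 1 rose and 3 fell; Flt3, which marks progenitors outside the gate, was at 126, 124 and 127 FPKM in Ctrl and at 64.4, 67.2 and 65.5 FPKM in IR. Cd48, whose protein the gate also took as absent, was at 396, 401 and 403 FPKM in Ctrl and at 359, 343 and 352 FPKM in IR, whereas Slamf1, which encodes the CD150 the gate required, was at 3.14, 3.61 and 3.95 FPKM in Ctrl and at 5.13, 5.46 and 4.58 FPKM in IR. The RNA levels of Flt3, Cd48 and Slamf1 thus went against the gate as the labels state it, in both groups. The part of these genes in the members' differences was not tested.

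The partners of each member were read from lists of ligands, co-receptors and signal proteins. In the angiopoietin and Tie pathway 3 of 6 tested genes rose and 2 fell (median 0.17). Tek, the angiopoietin receptor that pairs with TIE1, was at 3.56, 2.89 and 2.82 FPKM in Ctrl and at 5.40, 5.66 and 5.64 FPKM in IR, a log2 difference of 0.69 (95% interval 0.53 to 0.84, limma adjusted p = 2.75e-05). Its ligand gene Angpt1 rose by 0.28 and the adaptor gene Grb2 by 0.28, while the adaptor gene Dok2 fell, at -0.26. Tek was 0.303 to 0.418 times Tie1 in Ctrl libraries and 0.534 to 0.587 times in IR libraries; whether the 2 differences differ was not tested.

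Of 13 tested genes of the endoglin and ALK1 pathway, 3 rose and 6 fell (median -0.09). Id2 and Id1, transcriptional targets of BMP signals, fell by 0.54 and 0.46 on the log2 scale, and the signal transducers Smad2 and Smad4 by 0.23 and 0.34. The TGF-beta receptor gene Tgfbr2 was not called, at -0.09, and Acvrl1, which encodes ALK1, the receptor that endoglin serves in endothelium, was at 0.439 to 0.553 FPKM in Ctrl and 0.197 to 0.318 FPKM in IR, under the filter. In the Slit and Robo list only 1 of 6 tested genes was called: the focal adhesion gene Pxn fell, at -0.20. The neuronal receptor genes Robo1 and Robo2 were at 0 in all 6 libraries and the ligand genes Slit1, Slit2 and Slit3 were at or under 0.104 FPKM.

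Of 5 Notch receptors and ligands tested, 3 fell and none rose (median -0.37). Notch1, a receptor to which the Egfl7 product binds, was at 3.01, 3.08 and 2.83 FPKM in Ctrl and at 1.16, 1.13 and 1.24 FPKM in IR, a log2 difference of -0.87 (limma adjusted p = 2.14e-06). The Notch target Hes1 had a log2 difference of -0.60 and the ligand gene Jag2 of -0.37, both from under 2 FPKM in every library. Fewer than 3 of their IR libraries reached 1 FPKM, so both passed the filter through their Ctrl libraries. Their count among the genes that fell was thus tied to their being lower in IR, and the median of the list is the value of Jag2.

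Junction proteins did not move one way: 5 of 12 tested rose and 2 fell (median 0.06). F11r, the junctional adhesion molecule JAM-A, fell from 22.7, 22.4 and 24.0 FPKM to 16.3, 16.7 and 16.8 FPKM, a log2 difference of -0.45. Jam3 rose by 0.69 from 0.211 to 0.499 FPKM in Ctrl to 1.13 to 1.20 FPKM in IR, passing the filter only through its IR libraries. Another claudin gene, Cldn15, rose by 0.59 and beta-catenin (Ctnnb1), a partner of cadherins, by 0.12; Jam2 stayed under 1 FPKM throughout. Of 5 sialomucins and selectins tested 3 fell and 1 rose (median -0.23): the selectin ligand Selplg had a log2 difference of -0.24, Cd164 of -0.23 and Selp, P-selectin, of 0.71. Podxl, a relative of Cd34, peaked at 0.358 FPKM. In the PECAM-1 and integrin list 3 of 13 rose and 6 fell (median -0.05), with Cd38, whose product binds PECAM-1, at -0.59, the kinase gene Yes1 at -0.66, Itgb1 at -0.21 and Itgb3 at 0.56. Yes1, like Ramp2, Hes1 and Jag2, passed the filter through its Ctrl libraries, since fewer than 3 IR libraries reached 1 FPKM, so its count among the genes that fell was tied to its being lower in IR.

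**Figure D4:**
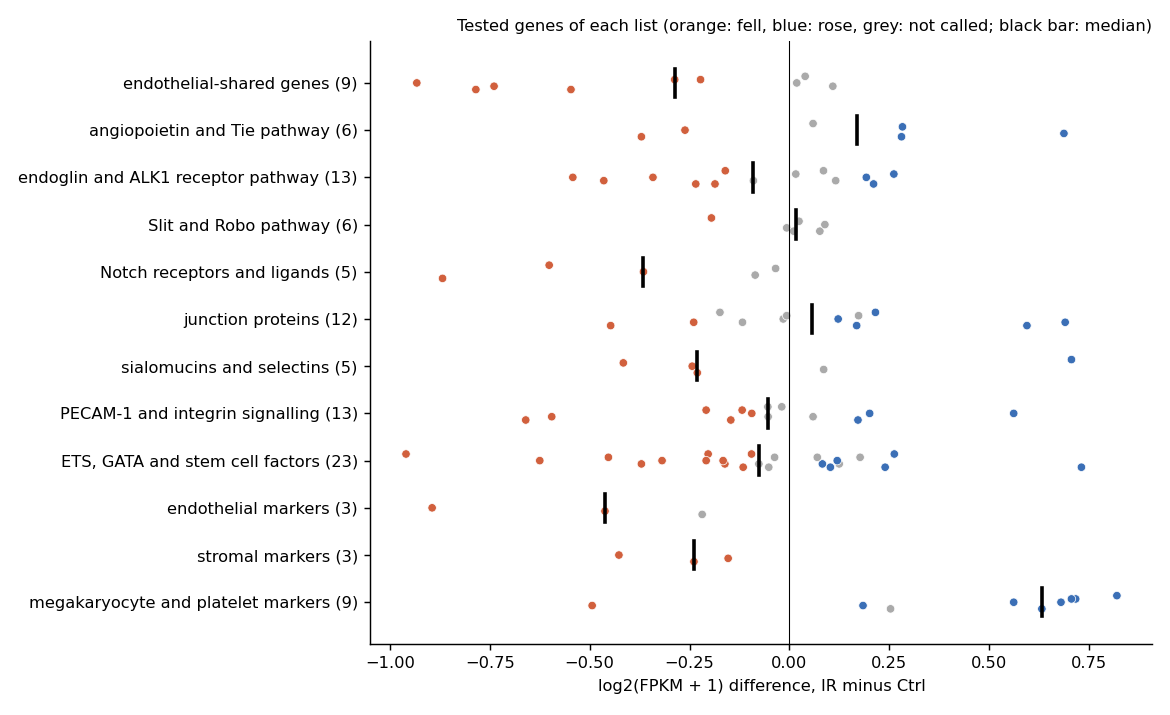
Log2(FPKM + 1) difference, IR minus Ctrl, of each tested gene of the endothelial-shared list and of the partner, regulator and marker lists; the number tested is in parentheses, orange fell, blue rose, grey was not called, and the black bar is the median. The endothelial-shared genes have their median at -0.29, the megakaryocyte and platelet markers at 0.63.

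Transcription factors of the ETS and GATA families are known regulators of genes that endothelium and HSCs share. Of 23 such factors and other stem cell factors tested, 6 rose and 11 fell (median -0.08). Mef2c fell from 31.9, 31.6 and 30.9 FPKM to 23.1, 22.5 and 22.5 FPKM, Klf2, a flow-responsive factor of endothelium, had a log2 difference of -0.96 and Hhex of -0.32, and Gata1 rose by 0.73. Among the ETS factors, named after their values were seen, Erg was not called at 11.3 ± 0.162 FPKM in Ctrl and 10.9 ± 0.0868 FPKM in IR (SD, n = 3), Fli1 rose by 0.08 and Ets1 fell, at -0.62.

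Promoter windows of 300 bases (250 before to 50 after a start site, RefSeq, GRCm38.p6) were at hand for 7 of the 10 members and were searched on both strands for the ETS words CAGGAA and CCGGAA and the GATA words AGATAA and TGATAA, which do not overlap one another. An ETS word stood in at least 1 window of 6 of the 7 members, against 44.7% of all genes with a window, and a GATA word in 2 of 7, against 21.0%. The ETS words were in 4 of 5 members that fell (not Cldn5) and in both that were not called, Tie1 and Eng. The stretches upstream of annotated exons are shown for 3 members that fell, so that the words can be seen in place; capitals mark them on either strand.
Egfl7 (chr2:26583704-26583863, plus strand): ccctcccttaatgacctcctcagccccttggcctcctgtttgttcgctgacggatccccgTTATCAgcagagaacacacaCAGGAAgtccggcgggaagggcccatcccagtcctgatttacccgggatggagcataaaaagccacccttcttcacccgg
Emcn (chr3:137340907-137341066, plus strand): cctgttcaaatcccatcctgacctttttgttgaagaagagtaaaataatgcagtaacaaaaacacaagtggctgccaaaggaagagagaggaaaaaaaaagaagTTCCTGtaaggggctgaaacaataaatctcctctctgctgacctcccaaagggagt
Cd34 (chr1:194938659-194938818, plus strand): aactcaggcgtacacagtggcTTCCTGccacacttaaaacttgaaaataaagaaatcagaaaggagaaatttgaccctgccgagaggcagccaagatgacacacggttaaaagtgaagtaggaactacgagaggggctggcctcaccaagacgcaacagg
The Egfl7 stretch is the second of its 3 windows and holds a GATA word and an ETS word within its 160 bases. The whole Emcn window holds 2 ETS words and 1 GATA word, and the whole Cd34 window 2 ETS words, so some words lie outside the stretches shown. Robo4, which also fell, has 1 ETS word in its window but none in the matching stretch, which is not shown. A match is a description of letters and not a binding site.

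Neighbouring genes went in both directions. Within 100 kb of a member, 30 other protein-coding genes were tested, of which 9 fell, 7 rose and 14 were not called. The shares over all tested genes were 28.9% lower and 25.8% higher. Beside Egfl7, Notch1 lies 63.4 kb away and fell, while Fam69b rose by 0.13. Beside Pecam1, Milr1, a mast cell receptor gene 0.6 kb away (named after its value was seen, like Fam69b), had a log2 difference of -0.39. Robo4 and Esam lie 113.0 kb apart on chromosome 9; the first fell and the second was not called.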

How the data were processed

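RNA-seq of sorted mouse HSCs was compared between 3 Ctrl and 3 IR libraries. Libraries were made with a stranded mRNA kit, per the labels' protocols. The deposited values are FPKM per gene symbol, made by the authors with fastp, HISAT2 and StringTie on GRCm38 (mm10), per the submitters' processing notes; the sources used here give no versions, annotation or settings, and the unit was inferred from the values. Of 21878 entries 27 carried dates for symbols and were left out.

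A gene entered the test if 3 or more libraries reached 1 FPKM. The test was limma 3.58.1 on log2(FPKM + 1) (mean-variance trend, two-sided, no replicate block) in R 4.3.3, with p-values adjusted over all tested genes; the script was tested on simulated data. The added 1 FPKM shrinks the log2 difference of low genes. Depth was estimated in single-transcript GENCODE M21 genes, where 25.1% to 26.6% of low values lay within 0.01 of whole fragments, too few to recover counts. The squared difference between libraries of a group was 1.23 to 1.48 times that of counting noise (median over genes). It was taken from approximate fragments at the estimated depths. Each library was counted as 1 sample, and this ratio cannot tell whether the libraries came from separate mice.

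All 10 members are named; of each list, the 4 genes with the smallest p and fixed direct partners, a few of which are not reported here. Members and lists were chosen with earlier results of these data known. Alternatives were the pseudocount, the filter, rescaling, centring, no trend, a replicate block and leaving out each library.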

Additional observations from a re-analysis of the deposited data

How the results depend on the processing

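Each member kept its side of the threshold under every alternative that could test it, and each of the 6 that fell kept its direction. Cldn5 was not tested with a filter of 5 FPKM or without any 1 of the Ctrl libraries, so 5 members fell there and 6 otherwise. None rose in any setting. Without IR replicate 1, the differences of Eng and Esam, neither called, turned to -0.00089 and -0.00161 (highest 0.04262 and 0.07224 with another library left out), and that of Tie1 was 0.15 (adjusted p = 0.0558, limma), against adjusted p = 0.0847 to adjusted p = 0.403 elsewhere. Robo4 ranged from -0.96 with a pseudocount of 0.1 to -0.43 with 5. Of 109 partner and marker genes 32 rose; with a filter of 5 FPKM 20 of 70 did, since fewer genes were tested. With the replicate number as a block, 6 members fell and none rose, and 2840 genes fell and 2539 rose over all genes; same-numbered libraries did not deviate together (r = -0.049 to 0.009), and the block changed no member's call. Rescaling and centring moved the median of all genes by 0.0025 and 0.0087. At these depths Cldn5 rests on at most 38 fragments a library, and no change of Cdh5 was detectable.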
